A study of Mus musculus with 10 samples.

Results

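Cohesin is the ring-shaped protein complex that holds sister chromatids together, and its 9 subunit genes described here are Rec8, Rad21l, Smc1b and Stag3, the meiotic forms, Rad21, Smc1a, Stag1 and Stag2, the mitotic forms, and Smc3, which is common to both kinds of complex. They were picked by symbol from the 23420 gene rows of the series, and each meiotic subunit was set against its mitotic counterpart. All 9 passed the filter on low counts and are among the 15265 genes tested. The libraries are polyA RNA from spermatogenic cells of the testes of mice of mixed background at postnatal day 18 (P18), 5 labelled Ino80WT and 5 labelled Ino80cKO. In Ino80cKO the chromatin remodeller gene Ino80 is deleted in the testis by Stra8-Cre, a recombinase that is active in male germ cells from the spermatogonial stage. The sources used here do not give the floxed alleles or the Cre status of the Ino80WT mice. Tubules were digested with collagenase and trypsin and the cells passed through a 40 micron filter, and no sort for a cell type is described, so other cells of the testis can be present in both groups.

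A cohesin ring is built from an SMC1 and an SMC3 protein joined by a kleisin, to which a STAG protein binds. Somatic cells use SMC1A, the kleisin RAD21 and either STAG1 or STAG2. In meiosis, SMC1B, the kleisins REC8 and RAD21L and the protein STAG3 take the corresponding places in many complexes, hold sister chromatids together through prophase and form the axis from which chromatin loops extend. REC8 at the centromeres is protected from separase until the second division, whereas RAD21L is found mainly in prophase.

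Values per library are in CPM, counts scaled to library size by trimmed mean of M values (TMM) factors. Fold changes are Ino80cKO over Ino80WT, with SD for CPM and ratios and SE for log2 fold changes (n = 5 libraries per group). Adjusted p-values come from the quasi-likelihood test of edgeR with Benjamini-Hochberg correction over all genes tested, exact permutation tests are named where used, and a gene passed at an adjusted p below 0.05. The labels do not say that the libraries came from separate animals, so a p-value here measures only how far these libraries spread, and that spread may be technical. Gene counts per library ranged from 16750609 to 23700094, and 3 counts correspond to 0.117 to 0.189 CPM, a floor that covers counting error only. Ino80 itself had 94.9 ± 12.6 CPM in the Ino80WT libraries and 96.0 ± 1.37 CPM in the Ino80cKO libraries (log2 0.02 ± 0.09, adjusted p = 0.889), and since reads of exons that remain still count, it checks neither the labels nor the deletion. Of all genes tested, 4220 (27.6%) were lower and 2793 (18.3%) higher in Ino80cKO, and the CPM of the groups did not overlap for 4879 (32%). With scaling by library totals, which moves the median log2 fold change of all genes from 0.02 to 0.19, these counts were 2938 lower and 5484 higher.

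The labelled cells were checked against marker genes. The germ cell genes Ddx4, Dazl, Mael and Sycp3 together made up 2573 to 3342 CPM in Ino80WT and 1693 to 2177 CPM in Ino80cKO. Of these 4, 3 were lower, and Dazl did not pass (845 and 776 CPM, log2 -0.12, adjusted p = 0.242). The 10 pachytene genes of the marker list, among them Piwil1, Hspa2 and Ldhc, were all lower in Ino80cKO, with sums of 3054 to 5288 CPM in Ino80WT and 1092 to 1935 CPM in Ino80cKO. The 8 leptotene and zygotene genes summed to 683 to 970.3 CPM in Ino80WT and 542 to 655 CPM in Ino80cKO. Of them 3 were lower and 5 did not pass. Among 8 spermatid genes, Tnp2, Prm1 and Prm2 had no count in any library, whereas the others had counts. The spermatid sums were 6.67 to 9.12 CPM in Ino80WT and 6.34 to 7.95 CPM in Ino80cKO. Only 2 spermatid genes were tested, and neither passed. Of 10 Sertoli cell genes, 5 were higher and 0 lower in Ino80cKO, and the sums of 2714 to 4138 CPM in Ino80WT and 4006 to 5272 CPM in Ino80cKO overlapped. The macrophage genes summed to 53.2 to 81.0 CPM in Ino80WT and 90.0 to 126 CPM in Ino80cKO. Of 5 Leydig cell genes tested, 3 were higher and 0 lower, with sums of 26.4 to 71.5 CPM in Ino80WT and 48.1 to 108 CPM in Ino80cKO. Of 5 peritubular genes 1 was higher and 0 lower, and of 4 endothelial genes 0 were higher and 0 lower. All these counts stand beside 18.3% higher and 27.6% lower of all genes tested. Spermatogonia divide by mitosis, and of 8 genes of their undifferentiated stage Etv5 and Foxo1 were higher and Id4 lower, with sums of 279 to 370.3 CPM in Ino80WT and 313 to 393 CPM in Ino80cKO. Of 7 genes of the differentiating stage, Stra8 and Ccnd2 were higher and Sohlh2 and Dmrtb1 lower, with sums of 515 to 667 CPM and 485 to 545 CPM. The Ino80WT 3 library had the highest pachytene sum and the lowest Sertoli sum, and Ino80cKO 3 the lowest pachytene and the highest Sertoli sum. The part of these cell types in the results on cohesin was not tested.

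Promoter sequences were matched for 7 of the 9 subunits in RefSeq (GRCm38.p6, the build mm10). Each window holds 250 bases before the transcription start and 50 after it. Rad21 and Stag2 are named only. The letters of the E2F core motif, GCGGGA on either strand, occur in 6 of these 7 windows and in 20% of all 32851 windows of the table. That share was not matched for GC or CpG content, which is given below for the subunits. E2F proteins regulate many genes of DNA replication and chromosome biology. The sequences are shown because the windows of meiotic subunits (Rec8, Smc1b and Stag3), of mitotic subunits (Smc1a and Stag1) and of Smc3 hold the same letters close to the start. The motif is in capitals, with up to 12 bases on each side, 5′ to 3′ on the strand of the gene.
Rec8, chr14:55618116-55618145, plus strand: gtgtgcacctgaTCCCGCtggagggcgaca
Smc1b, chr15:85131987-85132016, minus strand: aaaagaatttctTCCCGCgctttttttttt
Stag3, chr5:138280495-138280524, plus strand: tatcccgtgcctTCCCGCgtttttttctaa
Smc1a, chrX:152016455-152016477, plus strand: cactgcgctattTCCCGCgcggg
Smc3, chr19:53600268-53600297, plus strand: tctaagagggccGCGGGAgaggggcctttc
Stag1, chr9:100643421-100643450, plus strand: aaaggccacgttTCCCGCgccgctgctgcg

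The first base of the motif lies at -38 from the start in Rec8, -47 in Smc1b, -2 in Stag3, 40 in Smc1a and -15 in Stag1. Smc3 holds it at -116, as printed, and again at 30. Rad21l is the exception, but its window (151668484 to 151668783, minus strand) lies inside the annotated gene span, which ends at 151670622. Whether these bases are its promoter in these cells is not known. The Rad21l window holds none of the 6 motifs searched, has a GC content of 29% and contains 2 CpG dinucleotides. The other 6 windows have 58.3% to 73.7% GC and 18 to 43 CpG. The 100 bases before the RefSeq start of Rad21l are printed to show this difference in composition.
Rad21l, chr2:151668534-151668633, minus strand: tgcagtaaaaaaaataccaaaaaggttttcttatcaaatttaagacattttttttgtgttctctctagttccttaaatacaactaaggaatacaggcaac

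The other motifs, searched on both strands, were rarer among the subunits. The E-box CACGTG occurs in the Stag3 window alone of the 7 (7.15% of all windows), at -170, and the MYB core TAACNG also there, at -41 and 21 (23.3% of all windows). The YY1 core ATGGCG occurs in Smc3 once and in Stag1 at 3 places (8.93%). Neither the cyclic AMP response element core TGACGT (7.51%) nor the STRA8 motif CNCCTCAG (7.94%) occurs in any of the 7 windows. No match of 1 of these motifs shares bases with a match of another. A match describes the letters only and is not evidence of binding. The RefSeq windows of Rad21l, Stag3 and Stag1 lie inside the annotated gene span, and whether they are promoters in these cells is not known.

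Among the cohesin subunits, Stag3 and Smc1b, meiotic forms, were lower in Ino80cKO, and Rad21, Smc1a and Stag2, mitotic forms, were higher. Of the 4 meiotic subunits, 2 fell, 0 rose and 2 did not pass, with a median log2 fold change of -0.22. Of the 4 mitotic subunits, 3 rose, 0 fell and 1 did not pass, with a median of 0.37, and Smc3 did not pass. The groups did not overlap for Stag3, Rad21, Smc1a and Stag2, 4 of the 9. These shares stand beside the 27.6%, 18.3% and 32% of all genes given above, and the median log2 fold change of all genes was 0.02. Smc1a and Stag2 are X-linked, and of X-linked genes 49.4% were higher. In RNA from mixed cells, fewer cells of a type and less RNA per cell cannot be told apart, and this holds for each subunit described.

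**Figure D1:**
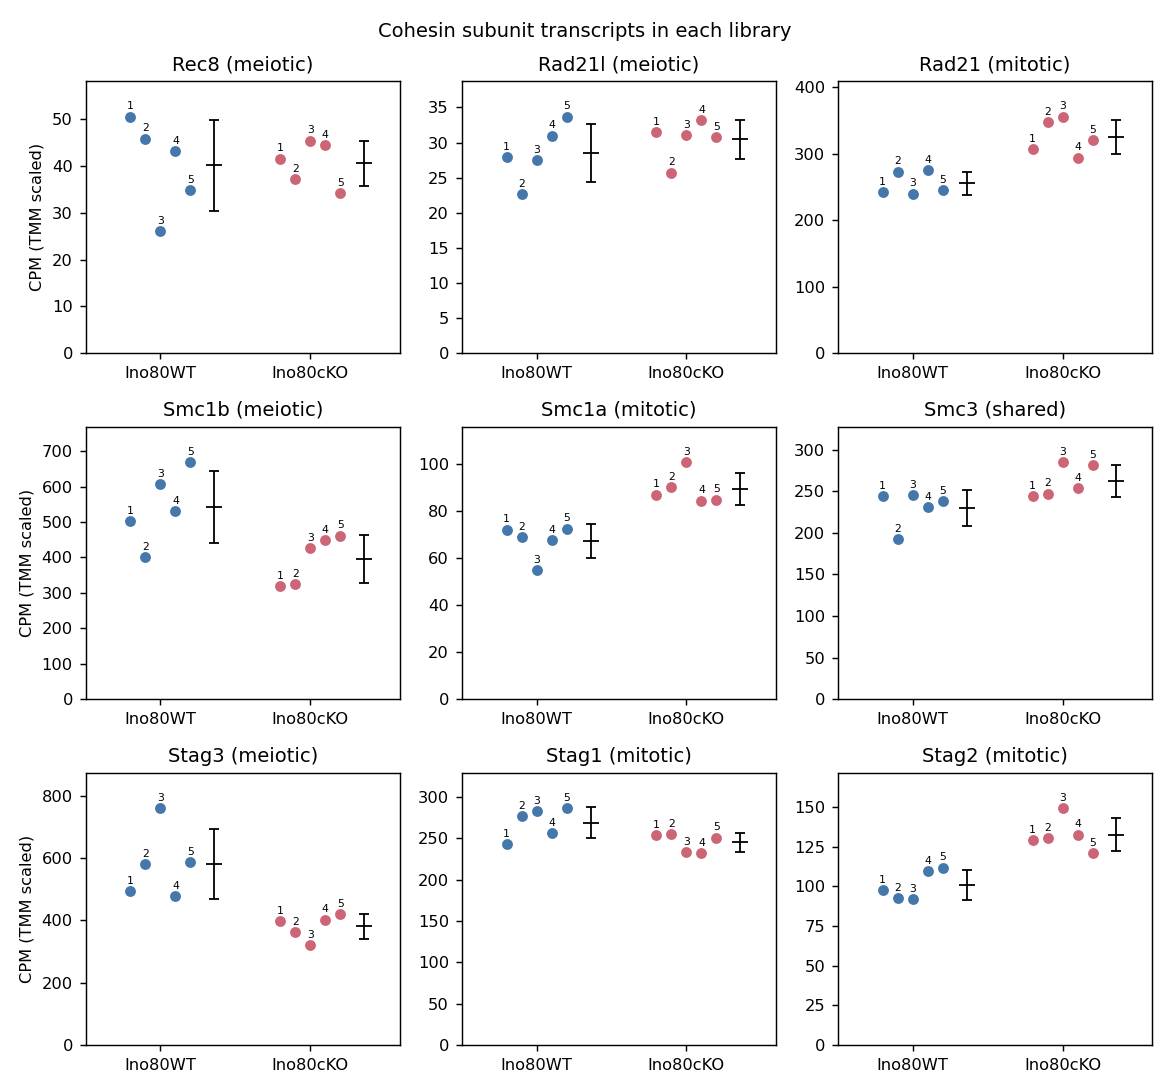
Transcript level of each cohesin subunit in each library, in TMM-scaled CPM on axes that start at 0. Points are single libraries numbered by replicate, and the bars give the mean ± SD of 5 libraries. The Ino80WT points of Stag3 lie above all Ino80cKO points, those of Rad21, Smc1a and Stag2 lie below them, and those of Rec8 and Rad21l are intermixed.

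Stag3 encodes the meiotic STAG protein, found in all known meiosis-specific cohesin complexes (chromosome 5, positions 138272514 to 138312397). Its level was 493, 581, 761, 479 and 587 CPM in Ino80WT 1 to 5 and 397, 363, 322, 403 and 421 CPM in Ino80cKO 1 to 5. Each Ino80WT library stood above each Ino80cKO library, and Ino80WT 3 was the highest and Ino80cKO 3 the lowest. Stag3 thus fell from 580.4 ± 112 to 381 ± 39.4 CPM, 1.52-fold lower (log2 -0.61 ± 0.12, 95% interval of the fold 0.545 to 0.792, adjusted p = 0.00200). The exact permutation test on the CPM values, two-sided, gave p = 0.00794, the smallest that 5 against 5 libraries can give. Of all genes tested, 14.6% had a lower log2 fold change than Stag3.

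The mitotic STAG genes differed from each other. Stag2, on the X chromosome (positions 42149297 to 42277186), stood at 97.4, 92.6, 92.1, 109.8 and 112 CPM in Ino80WT and at 129, 130.4, 149, 133 and 121 CPM in Ino80cKO. No Ino80WT library reached the lowest Ino80cKO library, and Stag2 rose 1.32-fold, from 101 ± 9.42 to 133 ± 10.3 CPM (log2 0.40 ± 0.08, interval of the fold 1.17 to 1.49, adjusted p = 0.00193, exact permutation p = 0.00794). Stag1, on chromosome 9 (positions 100597709 to 100958544), stood at 243, 277, 282, 256 and 286 CPM in Ino80WT and at 254, 255, 234, 232 and 251 CPM in Ino80cKO. These values overlapped, and the difference from 269 ± 18.7 to 245 ± 11.1 CPM did not pass (log2 -0.13 ± 0.07, interval of the fold 0.821 to 1.01, adjusted p = 0.126, exact permutation p = 0.0556). STAG1 and STAG2 form alternative mitotic complexes, STAG1 being the form linked to telomere cohesion and STAG2 the one linked to centromere cohesion.

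Smc1b encodes the meiotic SMC1 protein (chromosome 15, positions 85064689 to 85131957). It stood at 502, 401, 606, 530.3 and 668 CPM in Ino80WT and at 319, 326, 426, 449 and 461 CPM in Ino80cKO. Most Ino80WT libraries were higher, but Ino80WT 2 lay below 3 of the Ino80cKO libraries, so the groups overlapped. Smc1b fell from 542 ± 102 to 396 ± 68.4 CPM, 1.37-fold lower (log2 -0.45 ± 0.15, interval of the fold 0.587 to 0.912, adjusted p = 0.0245, exact permutation p = 0.0397). The call was not reached with library totals (log2 -0.27, adjusted p = 0.111), nor without Ino80WT 3 (-0.41), Ino80WT 5 (-0.37), Ino80cKO 1 (-0.38) or Ino80cKO 2 (-0.39), where edgeR's adjusted p was 0.0504 to 0.0661. Without Ino80WT 3 and Ino80cKO 3 together it was -0.41 (adjusted p = 0.0717).

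Smc1a, the mitotic counterpart, is X-linked (positions 152016428 to 152061973). Its level was 72.2, 68.9, 55.1, 67.8 and 72.6 CPM in Ino80WT and 87.1, 90.2, 101, 84.6 and 85.0 CPM in Ino80cKO. All Ino80cKO libraries were higher than all Ino80WT libraries, with Ino80WT 3 the lowest and Ino80cKO 3 the highest. Smc1a rose 1.33-fold, from 67.3 ± 7.13 to 89.5 ± 6.72 CPM (log2 0.41 ± 0.09, interval of the fold 1.17 to 1.51, adjusted p = 0.00227, exact permutation p = 0.00794).

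Smc1a and Stag2 share their chromosome, and the X is silenced in pachytene spermatocytes as part of normal meiosis. Of 599 X-linked genes tested, 296 (49.4%) were higher in Ino80cKO and 1 lower, and the median of their log2 fold changes was 0.34, against -0.00 for 14588 autosomal genes. Among X-linked genes, 63.4% had a log2 fold change below that of Smc1a and 60.8% below that of Stag2. Rad21, on an autosome, stood above 82.1% of autosomal genes.

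Rad21 encodes the mitotic kleisin (chromosome 15, positions 51962604 to 51993538). It stood at 243, 273, 240.1, 276 and 246 CPM in Ino80WT and at 307, 348, 356, 294 and 321 CPM in Ino80cKO, with no overlap and with Ino80WT 3 the lowest and Ino80cKO 3 the highest. Rad21 rose 1.27-fold, from 255.5 ± 17.4 to 325 ± 26.2 CPM (log2 0.35 ± 0.08, interval of the fold 1.13 to 1.43, adjusted p = 0.00316, exact permutation p = 0.00794). Its call, and those of Stag3, Smc1a and Stag2, held in every one of the 17 alternatives run.

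The meiotic kleisins showed no such difference. Rec8, whose product carries cohesion to the second meiotic division (chromosome 14, positions 55618002 to 55625395), stood at 50.5, 45.8, 26.1, 43.2 and 34.8 CPM in Ino80WT and at 41.6, 37.1, 45.4, 44.5 and 34.2 CPM in Ino80cKO. The highest and the lowest values were both in Ino80WT, and its coefficient of variation there was 24.1% against 11.8% in Ino80cKO. The means were 40.1 ± 9.67 and 40.5 ± 4.79 CPM (log2 0.02 ± 0.16, interval of the fold 0.801 to 1.28, adjusted p = 0.933, exact permutation p = 0.889). Ino80WT 3, lowest for Rec8, was the library highest for Stag3.

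Rad21l, the kleisin restricted to meiotic prophase (chromosome 2, positions 151644366 to 151670622), stood at 27.9, 22.7, 27.5, 31.0 and 33.7 CPM in Ino80WT and at 31.5, 25.7, 31.0, 33.2 and 30.7 CPM in Ino80cKO. The groups overlapped over most of their range. The means were 28.6 ± 4.13 and 30.4 ± 2.81 CPM (log2 0.09 ± 0.11, interval of the fold 0.906 to 1.25, adjusted p = 0.499, exact permutation p = 0.389). A fall as large as that of Stag3, 1.52-fold, lay outside the intervals of both kleisins.

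Smc3, the SMC partner in mitotic and meiotic rings alike (chromosome 19, positions 53600396 to 53645831), stood at 244, 193, 245, 231 and 238 CPM in Ino80WT and at 244, 247, 285, 254 and 282 CPM in Ino80cKO. Ino80WT 2 was lower than all other libraries, and Ino80cKO 1 lay within the range of Ino80WT. The difference from 230.2 ± 21.7 to 262 ± 19.5 CPM did not pass (log2 0.19 ± 0.08, interval of the fold 1.01 to 1.29, adjusted p = 0.0793, exact permutation p = 0.0238). It passed without Ino80WT 1 (0.23, adjusted p = 0.0372), with DESeq2 (0.22, adjusted p = 0.0437) and with library totals (0.36, edgeR adjusted p = 0.00339).

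Ratios of 2 subunits within a library compare the meiotic and mitotic forms without any scaling between libraries. They do not remove the shift of X-linked genes (median log2 fold change 0.34, against -0.00 for autosomal genes). Smc1a and Stag2 are X-linked, and the part of that shift in their ratios was not tested. For 7 ratios, the log2 ratio of counts was compared between groups by an exact two-sided permutation test with adjustment over the 7. The ratio of Stag3 to Stag2 was 2.51 ± 0.35 on the log2 scale in Ino80WT, from 2.13 to 3.05, and 1.52 ± 0.26 in Ino80cKO, from 1.11 to 1.80. The groups did not overlap, and the ratio was 1.99-fold lower in Ino80cKO (log2 -0.99 ± 0.20 SE, exact permutation p = 0.00794, adjusted p = 0.0139). The ratio of Stag3 to Stag1 ran from 0.91 to 1.43 in Ino80WT and from 0.46 to 0.79 in Ino80cKO, again without overlap, and was 1.38-fold lower (log2 -0.46 ± 0.11, exact permutation p = 0.00794, adjusted p = 0.0139). Within the mitotic pair, the ratio of Stag2 to Stag1 was 1.44-fold higher (log2 0.53 ± 0.11), with the same exact permutation p = 0.00794 and adjusted p = 0.0139.

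The ratio of Smc1b to Smc1a ran from 2.54 to 3.46 on the log2 scale in Ino80WT and from 1.85 to 2.44 in Ino80cKO. These ranges were separate although those of Smc1b alone overlapped. The ratio was 1.82-fold lower in Ino80cKO (log2 -0.86 ± 0.20, exact permutation p = 0.00794, adjusted p = 0.0139). In these 4 ratios, leaving out Ino80WT 3 and Ino80cKO 3 together gave differences of -0.75, -0.33, 0.42 and -0.73 in the order above. Each had an exact permutation adjusted p = 0.05, which does not pass. Fewer libraries raise the smallest p that the exact test can give. The missed threshold therefore does not show that the ratios depend on these libraries.

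The kleisin ratios overlapped between groups. Rec8 to Rad21 was -2.71 ± 0.34 on the log2 scale in Ino80WT and -3.01 ± 0.22 in Ino80cKO (difference -0.30 ± 0.18, exact permutation p = 0.135, adjusted p = 0.189). Rad21l to Rad21 was -3.17 ± 0.26 and -3.42 ± 0.23 (difference -0.25 ± 0.16, exact permutation p = 0.175, adjusted p = 0.204). The balance within the meiotic pair, Rec8 to Rad21l, was 0.46 ± 0.48 and 0.41 ± 0.16 (difference -0.05 ± 0.23, exact permutation p = 0.849). Without Ino80WT 3 the Rec8 to Rad21 difference was -0.42 (exact permutation adjusted p = 0.0444), and without Ino80WT 2 that of Rad21l to Rad21 was -0.35 (exact permutation adjusted p = 0.0333).

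**Figure D2:**
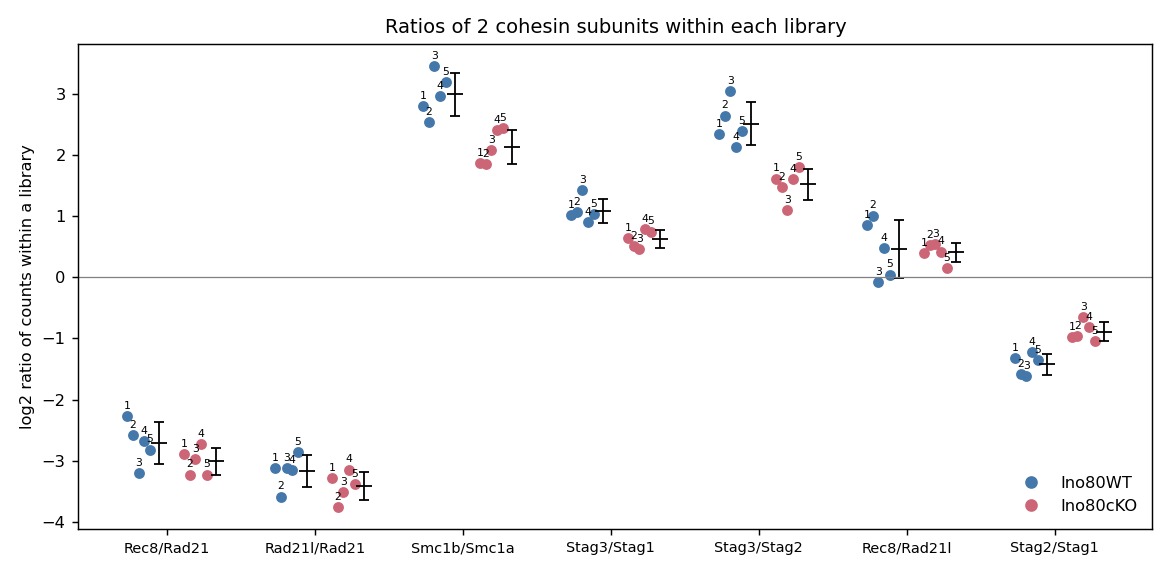
Within-library log2 ratios of counts for 7 pairs of cohesin subunits. Points are single libraries numbered by replicate, and the bars give the mean ± SD of 5 libraries per group. Smc1b to Smc1a, Stag3 to Stag1, Stag3 to Stag2 and Stag2 to Stag1 show no overlap between groups, while the 3 ratios of kleisins do.

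Levels of different subunits were compared per kilobase of merged exons in the GENCODE M21 annotation. In Ino80WT the order of CPM per kilobase was Smc1b (134 ± 25.3), Stag3 (101 ± 19.6), Rad21 (60.4 ± 4.12), Smc3 (41.6 ± 3.91), Stag1 (22.8 ± 1.59), Rad21l (17.2 ± 2.49), Rec8 (13.7 ± 3.29), Stag2 (12.2 ± 1.14) and Smc1a (11.7 ± 1.24). The ranges of Smc1b and Stag3 overlapped, as did those of neighbours in the order from Rad21l to Smc1a. The meiotic SMC1 and STAG forms were thus the most abundant subunits per length, whereas the meiotic kleisins were near the low end. In Ino80cKO, Smc1b (97.9 ± 16.9), Rad21 (76.9 ± 6.19) and Stag3 (66.5 ± 6.88) came first, with neighbours overlapping. Stag2 (16 ± 1.25) and Smc1a (15.5 ± 1.16) came before Rec8 (13.8 ± 1.63), and all neighbours from Stag1 (20.8 ± 0.943) down overlapped. The lengths are of the annotation and not of the transcripts made in these cells.

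The share of the meiotic form at each place in the ring was computed from the same length-scaled counts. Smc1b made up 91.8% ± 1.84 of SMC1 transcripts in Ino80WT, between 89.2% and 94.0%, and 86.1% ± 2.31 in Ino80cKO, between 83.7% and 88.6%. Stag3 made up 73.9% ± 3.20 of the STAG transcripts in Ino80WT (70.5% to 79.1%) and 64.2% ± 3.0 in Ino80cKO (59.7% to 67.2%). The groups did not overlap at either place. Smc1a and Stag2, counted in these shares, are X-linked, and the part of the shift of X-linked genes was not tested. Rec8 and Rad21l together made up 33.8% ± 2.73 of the kleisin transcripts in Ino80WT (31.0% to 37.2%) and 29.6% ± 3.06 in Ino80cKO (25.5% to 33.6%), with overlap. Rad21 was thus the most abundant kleisin transcript in both groups.

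**Figure D3:**
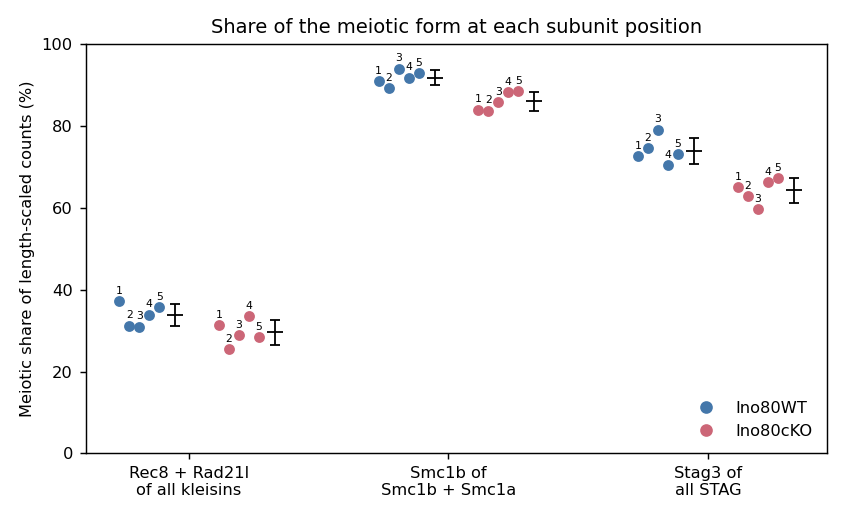
Share of the meiotic form among transcripts at each place of the cohesin ring, in percent of length-scaled counts. Points are single libraries numbered by replicate, and the bars give the mean ± SD of 5 libraries. The share of Smc1b and that of Stag3 are lower in all Ino80cKO libraries than in any Ino80WT library, and the kleisin shares overlap.

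Distances between subunits over the 10 libraries include the difference between groups, so genes that rose together are close by that alone. The root mean square difference of log2 CPM, each gene centred on its mean, was 0.0989 between Smc1a and Stag2, 0.119 between Rad21 and Smc1a and 0.123 between Rad21 and Stag2. Smc1b and Stag3 were farther apart, at 0.278, and the largest distance was 0.589, between Smc1a and Stag3. Ino80cKO 3 was the highest library for Rad21, Smc1a, Smc3 and Stag2 and the lowest for Stag3.

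Proteins that load, release and protect cohesin were described from a list of 25 genes, of which 24 passed the filter on low counts. In it 7 were lower, 3 higher and 14 did not pass, the median log2 fold change being -0.05 against 0.02 for all genes, where 27.6% were lower and 18.3% higher. The counts of the list lie near those shares, and with library totals 4 were lower and 6 higher. Neither loader passed under TMM scaling. Nipbl, which loads cohesin onto DNA, was at 509.9 ± 144 CPM in Ino80WT and 407 ± 42.1 CPM in Ino80cKO (log2 -0.32 ± 0.17, adjusted p = 0.130), and it passed without Ino80WT 1 (-0.42), whereas without Ino80WT 3 it was -0.18 (adjusted p = 0.323). Its partner Mau2 was at 158 CPM in both groups (log2 0.00, adjusted p = 0.961), and passed with library totals (0.18, adjusted p = 0.0287).

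Of 11 genes for release and for establishment of cohesion, 1 was higher, 1 lower and 9 did not pass, with a median of -0.03, where 27.6% of all genes were lower and 18.3% higher. Hdac8, an X-linked gene for the SMC3 deacetylase, rose 1.85-fold, from 1.38 ± 0.339 to 2.59 ± 0.446 CPM (log2 0.89 ± 0.20, adjusted p = 0.00313). Ddx11, a helicase needed for cohesion, fell from 42.4 to 33.6 CPM (log2 -0.34 ± 0.09, adjusted p = 0.00785), a call not reached with library totals (-0.16) or without Ino80WT 3 and Ino80cKO 3 (-0.23). The release factor Wapl, given as Wapal in the files, had a log2 fold change of -0.20 (adjusted p = 0.0782) and passed without Ino80WT 1 (-0.24), and the acetyltransferase gene Esco1 one of -0.14 (adjusted p = 0.376).

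The next role is protection at centromeres and cleavage. Of 9 genes tested, 6 fell, 0 rose and 3 (Sgol1, Plk1 and Aurkb) did not pass, with a median log2 fold change of -0.34, beside 27.6% lower, 18.3% higher and a median of 0.02 for all genes. Sgol2b had 16 counts over all libraries and was not tested. Meikin, which protects REC8 at meiosis I kinetochores and is given as 4930404A10Rik in the files, fell 2.55-fold, from 30.7 ± 4.90 to 12 ± 1.48 CPM (log2 -1.35 ± 0.13, adjusted p = 3.91e-05). Pttg1, the separase inhibitor securin, fell 1.63-fold, from 55.3 ± 7.08 to 33.9 ± 3.34 CPM (log2 -0.71 ± 0.10, adjusted p = 0.000185). Aurkc, the meiotic Aurora kinase, fell 2.26-fold, from 12.6 ± 4.12 to 5.56 ± 1.23 CPM (log2 -1.18 ± 0.22, adjusted p = 0.00124). Sgol2, the shugoshin that shields centromeric REC8, fell 1.43-fold, from 122.5 ± 23.4 to 85.9 ± 9.10 CPM (log2 -0.51 ± 0.12, adjusted p = 0.00504). Smaller falls were those of the separase gene Espl1 (log2 -0.34, adjusted p = 0.0158) and of the kinase gene Bub1 (log2 -0.26, adjusted p = 0.0302). The pachytene marker sums, given above, moved with these falls, and their part was not tested.

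Ctcf encodes a factor that stops cohesin at loop boundaries, and Ctcfl is its germ cell paralogue. Ctcfl rose 1.29-fold, from 16.3 ± 2.32 to 21.0 ± 1.65 CPM (log2 0.37 ± 0.11, adjusted p = 0.0140). Ctcf went from 98.7 to 112 CPM (log2 0.18 ± 0.06, adjusted p = 0.0261), a call lost in 5 of the 17 alternatives.

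The other SMC complexes, condensin, which compacts chromosomes, and SMC5/6, which acts in DNA repair, gave 9 lower and 0 higher of 15 genes (median log2 fold change -0.35), beside 27.6% lower and 18.3% higher of all genes, but 4 lower and 1 higher with library totals, beside 2938 lower and 5484 higher of all 15265. Of 8 condensin genes 3 were lower, and of 7 SMC5/6 genes 6 were. Smc4, the core subunit of both condensins, fell from 1056 ± 190 to 644 ± 90.8 CPM (log2 -0.71 ± 0.13, adjusted p = 0.000998). Ncaph, the kleisin of condensin I, fell from 53.2 to 37.6 CPM (log2 -0.50 ± 0.08, adjusted p = 0.0003). Eid3, a testis-expressed form of the SMC5/6 kleisin, fell from 112 ± 40.2 to 35.7 ± 11.5 CPM (log2 -1.65 ± 0.26, adjusted p = 0.000396), and Nsmce1, its RING-domain subunit, from 67.7 to 39.0 CPM (log2 -0.80 ± 0.11, adjusted p = 0.000128). Among mitotic cohesin subunits no gene fell, whereas these complexes, which serve mitosis as well, had no gene that rose under TMM scaling. Of the mitotic cohesin genes that rose, Smc1a and Stag2 are X-linked, whereas all 15 condensin and SMC5/6 genes are autosomal. The median log2 fold change was 0.34 for X-linked genes and -0.00 for autosomal genes. The difference between the complexes was not tested.

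**Figure D4:**
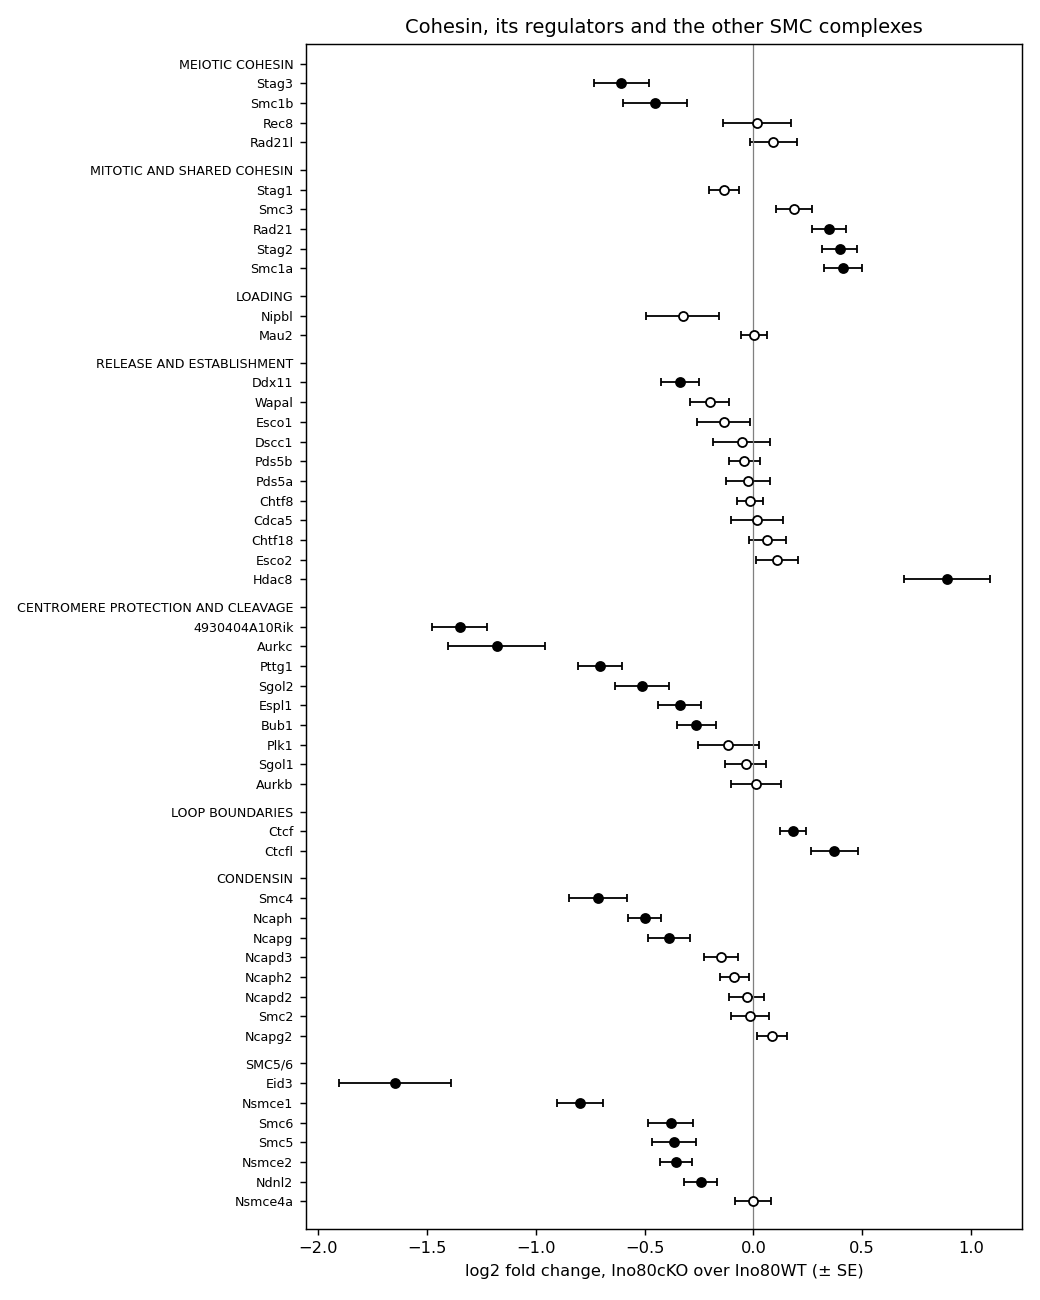
Log2 fold change, Ino80cKO over Ino80WT, of the cohesin subunits, the cohesin regulators and the subunits of condensin and SMC5/6. Each point is a gene from the edgeR fit and the bars give the SE. Stag3 (-0.61) and Smc1b (-0.45) lie on the opposite side of 0 from Smc1a, Stag2 and Rad21 (0.41, 0.40 and 0.35), and Meikin (-1.35) and Eid3 (-1.65) lie farthest to the low side.

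The genes nearest in profile to each meiotic subunit were found among 12273 genes by the same root mean square difference of centred log2 CPM over the 10 libraries. This distance includes the difference between groups, so a near gene resembles its subunit in fold change by selection. Nearest to Stag3 were Donson, a replication fork gene (0.0328), Ipo5, an importin (0.0422), and Fam98a (0.0492). Donson fell from 66.8 to 44.3 CPM (log2 -0.59, adjusted p = 0.00143). Nearest to Smc1b were Lrif1 (0.0980), Sycp1 (0.108) and Nemf (0.108). Sycp1 encodes the transverse filament protein of the synaptonemal complex, and its level went down from 1108 ± 241 to 772 ± 92.5 CPM (log2 -0.52, adjusted p = 0.0106).

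Nearest to Rad21l was Esco2, an acetyltransferase of SMC3 (0.0648), followed by Hells, a remodeller of the SNF2 family (0.0916), and Gyk (0.0957). For Rec8 the nearest genes were Kcnip1 (0.101), Atp6v0e (0.112) and Dqx1 (0.120), at larger distances. None of these 6 genes passed the test between groups under TMM scaling, an outcome that the choice by distance favours. With library totals Esco2 (0.28) and Hells (0.25) passed.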

How the data were processed

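The authors deposited whole-number counts of reads per gene, not normalized, in 1 file per library. The tools listed in the submitters' processing notes are TopHat2, HTSeq and DESeq2, with mm10 as the build and no version or role. The annotation and the strand setting were not given in the sources used here. A Kapa stranded mRNA kit was used, per the labels' protocols. Each file has 5 rows that name no gene, which held 35.5% to 44.0% of reads and were left out of totals and tests. No 2 libraries were duplicates (lowest chi-square per degree of freedom 9.52).

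Counts were analysed with edgeR 4.0.16 in R 4.3.3, using filterByExpr on genotype (minimum count 10, minimum total 15), TMM factors and a robust quasi-likelihood fit with genotype as its only term, checked on simulated counts. Ratios used counts plus 0.5, log2 CPM a prior count of 2. Exon lengths are from GENCODE M21 (GRCm38). Alternatives were a replicate block, relative log expression (RLE) scaling, library totals, DESeq2 1.42.0, no filter, and libraries left out. All 9 subunits are named, with up to 4 regulators per role, 4 other SMC genes and the 3 nearest profiles per meiotic subunit. The subunits and lists were chosen with earlier results of these data known.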

Additional observations from a re-analysis of the deposited data

Results flagged for a closer look

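Of the CPM values and ratios of the subunits, each looked at within a group of 5, in 2 a single library stood apart from the others by Dixon's criterion. Smc1a in Ino80WT 3 was 55.1 CPM, against 67.8 to 72.6 CPM in the other Ino80WT libraries. Smc3 in Ino80WT 2 was 193 CPM, against 231 to 245 CPM in the others. In all, 32 such groups were looked at, and chance alone marks about 5% of them. The call of Smc1a held without Ino80WT 3, and Smc3 did not pass without Ino80WT 2.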

How the results depend on the processing

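With library totals, 5484 genes were higher, cohesin regulators gave 6 higher and 4 lower, condensin and SMC5/6 gave 1 higher and 4 lower, X-linked genes gave 0 lower, Smc1b was -0.27 and Smc3 0.36. DESeq2 gave 0.22 for Smc3 and, as did RLE scaling and leaving out Ino80WT 1 and 2 (Rn45s at 7.08% and 4.67% of gene counts), 0 X-linked genes lower. Leaving out Ino80WT 3 and Ino80cKO 3, an alternative chosen after seeing the data, gave -0.41 for Smc1b, 4 regulators lower, and ratio differences of -0.73 (Smc1b to Smc1a), -0.33 (Stag3 to Stag1), -0.75 (Stag3 to Stag2) and 0.42 (Stag2 to Stag1), each with fewer libraries and so a higher smallest p. The cause of the other changes was not tested. Leaving out 1 library at a time gave -0.54 to -0.37 for Smc1b, 0.13 to 0.23 for Smc3, -0.42 to -0.19 for Rec8 to Rad21, -0.35 to -0.16 for Rad21l to Rad21 and 0 to 2 X-linked genes lower. The labels do not say that equal replicate numbers mark paired libraries. Correlations of deviations between libraries of equal number ran from -0.47 to 0.196, and 1 of 5 Ino80WT libraries correlated best with its own number. Such values cannot tell whether equal numbers mark a shared litter or day. With the replicate block, 1921 genes were higher and 3572 lower, and the calls of all 9 subunits were the same. All subunits were above the floor of 3 counts in all libraries, and no alternative matched the libraries for depth.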

Other observations

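Smc1b and Smc1a each start close to a gene of the RIB43A family of ciliary proteins on the opposite strand, genes looked up after the values of the subunits were seen. Ribc2, whose start lies 114 bp from that of Smc1b, fell from 22.5 ± 3.93 to 11.0 ± 1.87 CPM (log2 -1.04 ± 0.14, edgeR adjusted p = 0.000167). Ribc1, 133 bp from the start of Smc1a on the X chromosome, rose from 5.30 ± 0.690 to 7.41 ± 0.430 CPM (log2 0.48 ± 0.12, edgeR adjusted p = 0.00534). Ribc2 and Ribc1 thus each went the same way as the subunit beside it, where 27.6% of all genes were lower and 49.4% of X-linked genes higher. Gpc2, 235 bp from the start of Stag3, did not pass, at 32.6 ± 1.23 and 32.3 ± 2.36 CPM (log2 -0.01 ± 0.07, edgeR adjusted p = 0.882), while Stag3 fell. None of these 3 genes shares exonic bases with the subunit in the GENCODE M21 annotation.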
